A study of Mus musculus with 32 samples.

Results

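The RNA levels of mouse progenitor cells with and without an upstream Gata2 enhancer were compared after both cell lines had been given interferon gamma (IFNg) and the lipopeptide Pam3CSK4 together. The members were the 8 libraries whose titles name the combined treatment, 4 of the mutant and 4 of the wild-type line, out of 32 libraries in all. All cells were hematopoietic progenitors of fetal liver immortalised with ER-HOXB8, an estrogen-dependent form of the HOXB8 homeobox protein that holds myeloid progenitors in division, and all were grown with b-estradiol and SCF-conditioned medium. The line hi-77-/- carried the genotype Gata2 -77-/-, that is, it lacked the -77 enhancer, and the line hi-77+/+ kept it. IFNg was given at 1 ng/ml and Pam3CSK4 at 100 ng/ml for 4 h. The other 24 libraries came from the same lines given vehicle, IFNg alone or Pam3CSK4 alone, again 4 per group. Each genotype was a single line, and the labels do not say whether the 4 libraries of a group were separate cultures. The p-values therefore measure the spread between these libraries, and the genotype cannot be told apart from any other difference between the lines.

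GATA2 is a zinc-finger transcription factor of stem and progenitor cells and of mast cells. IFNg binds the receptor chains encoded by Ifngr1 and Ifngr2, and signalling through the kinases JAK1 and JAK2 raises IRF1 and the genes of antiviral defence and antigen presentation. Pam3CSK4 is sensed by TLR2 paired with TLR1 and acts through MyD88 to free NF-kB, which switches on cytokine and chemokine genes together with its own inhibitors.

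The libraries held 47.68 to 67.14 M expected counts and 14869 genes were tested. Levels are given in CPM, TMM-scaled counts per M counts, as mean ± SD with n = 4, and differences as log2 fold changes of mutant against wild-type ± SE from 1 edgeR model of all 32 libraries. The word gap refers to this log2 difference and not to the difference in CPM. A gene was called where its Benjamini-Hochberg adjusted p was under 0.05. Progenitor markers were present in both lines: Cd34 stood at 1683 ± 33.2 CPM in mutant and 1323 ± 28.7 CPM in wild-type libraries, Kit at 232 ± 14.2 and 264 ± 1.5 CPM, and Myb at 548 ± 28.5 and 622 ± 16.8 CPM. Hoxa9 had no counts in the 8 libraries. Of markers of other cell types, 3 of 20 T and NK cell, 4 of 17 hepatocyte and 11 of 20 stromal and endothelial genes passed the filter on low counts. Their summed levels were 8.38 to 9.35, 7.32 to 9.0 and 91.1 to 93.8 CPM in mutant libraries against 12.7 to 14.4, 19.3 to 21.3 and 66.3 to 75.1 CPM in wild-type libraries, and Cd3e, Cd8a, Ncr1, Ahsg, Col3a1 and Cdh5 had no counts. The lines also differed in sex-linked RNA: Xist, the long RNA that coats a silenced X, lay at 357 to 518 CPM in the mutant and at 0 to 0.0194 CPM in the wild-type libraries, and the 4 Y-linked genes measured were lower in the mutant, though all were detected there.

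Structural RNAs (mitochondrial transcripts and small non-coding RNAs) made up 18.91, 18.82, 27.83 and 26.29% of the counts in mutant libraries 1 to 4 and 14.17, 13.88, 13.69 and 12.76% in wild-type libraries 1 to 4. Mutant libraries 3 and 4 stood apart from 1 and 2, and the genotypes did not overlap in this share. With vehicle the shares were 25.76 ± 1.78 and 23.96 ± 4.17%. The part of this difference in the results below was not tested, and counts are given also without either pair of mutant libraries.

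**Figure D1:**
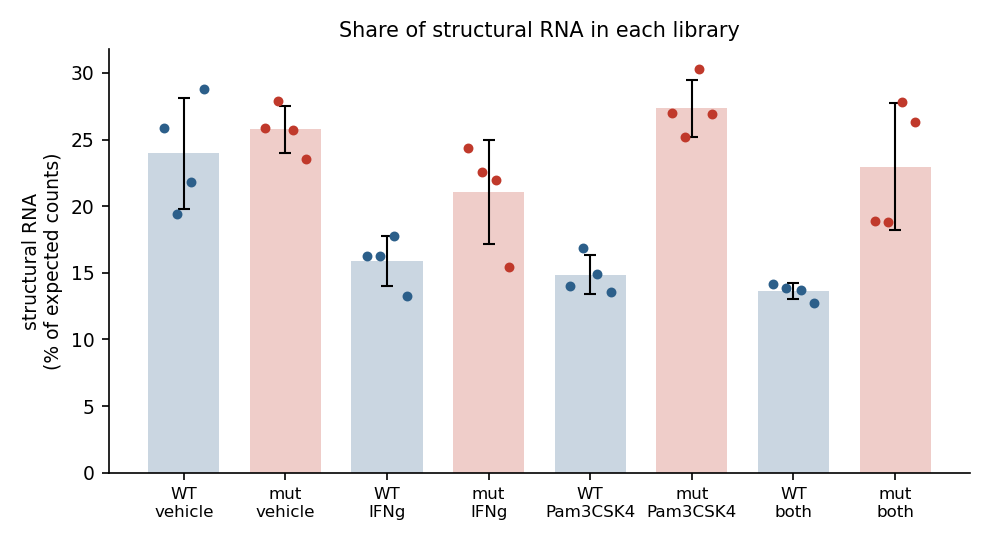
Percentage of expected counts in structural RNA genes for each of the 32 libraries (points), with the mean (bar) and SD (line) of the 4 libraries of each group. Under both agonists the 4 mutant libraries (18.82 to 27.83%) lie above the 4 wild-type libraries (12.76 to 14.17%).

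Gata2 itself (chromosome 6, 88193891 to 88207032 in mm10) checked the labels. It stood at 6.68, 6.04, 8.41 and 6.79 CPM in the mutant and at 39.9, 38.7, 38.6 and 39.3 CPM in the wild-type libraries under both agonists. The groups did not overlap, and the log2 fold change was -2.49 ± 0.10 (adjusted p = 1.7e-19). With vehicle it was -2.53, and the departure, the genotype difference under both agonists minus that with vehicle, was 0.04 ± 0.14 and did not pass (adjusted p = 0.88).

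Across the transcriptome, 4533 genes were higher and 4418 lower in mutant than in wild-type cells under both agonists, 60.2% of the genes tested (30.5% higher, 29.7% lower). At least 2-fold differences numbered 1392 higher (9.36%) and 813 lower (5.47%), and the median over all genes was 0.01. For 54.1% of genes the 4 mutant and 4 wild-type libraries did not overlap. With mutant libraries 1 and 2 only, 3703 genes were higher and 4162 lower, and with libraries 3 and 4 only, 4168 were higher and 4454 lower. Scaling by library totals alone lowered the median of all genes to -0.18 and turned the split to 2631 higher and 6608 lower, so differences are described relative to the TMM scale.

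The largest rises of the mutant line after Xist included Dlk1, an imprinted gene of the Notch ligand family, at 19.6, 20.3, 22.3 and 21.4 CPM in the mutant libraries and at 0 counts in all 4 wild-type libraries, which makes it at least 1641-fold higher against a floor of 3 counts over the group. Rras2, a RAS-related GTPase, lay at 7.99 to 9.0 CPM in the mutant and had no counts in the wild-type libraries (at least 666-fold higher). Among the largest falls, Pir, a nuclear iron-binding protein gene, and Pklr, the red cell pyruvate kinase gene, had no counts in the mutant and means of 6.38 ± 0.224 and 5.13 ± 0.502 CPM in the wild-type libraries, at least 490-fold and 393-fold lower. Prg2, the major basic protein of eosinophils, lay at 0.137 to 0.418 CPM against 37.4 to 40.1 CPM (-7.21 ± 0.19).

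The question that the combined treatment poses is whether these gaps were already there in unstimulated cells. With vehicle 3621 genes were higher (24.4%) and 4359 lower (29.3%) in the mutant, 53.7% in all. This split depended on the scaling and the libraries fitted: 3962 were higher and 3998 lower with RLE scaling, another method of size factors. In DESeq2 3982 were higher and 4028 lower, and with the vehicle libraries alone 3443 and 3404. Of the 8951 genes called under both agonists, 6095 were also called with vehicle in the same direction, which is 68.1% of the first and 76.4% of the second list. A further 2663 were called under both agonists and not with vehicle, and 193 were called in opposite directions, 123 of them lower with vehicle and higher under both agonists. The departure passed the test for 2347 genes (15.8%), 1308 upward (8.8%) and 1039 downward (6.99%), and for 535 upward and 310 downward of the 2663 genes and all 193 reversals. An upward departure of at least 2-fold was seen for 154 genes (1.04%) and a downward one for 58 (0.39%). The number of departures and its split rested on the libraries and the scaling used. There were 517 up and 949 down with mutant libraries 1 and 2 only, and 1380 up and 1894 down with libraries 3 and 4 only. Without mutant library 1 there were 981 up and 1605 down. When the model also held the share of structural RNA there were 826 up and 554 down, and with RLE scaling 1180 up and 1190 down. The shares over all genes to set beside the list counts below were 30.5% higher and 29.7% lower under both agonists. With vehicle they were 24.4% and 29.3%, and for departures 8.8% upward and 6.99% downward. In any list, a member near 0 in 1 line could pass the filter through the other and hardly differ in the opposite direction.

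**Figure D2:**
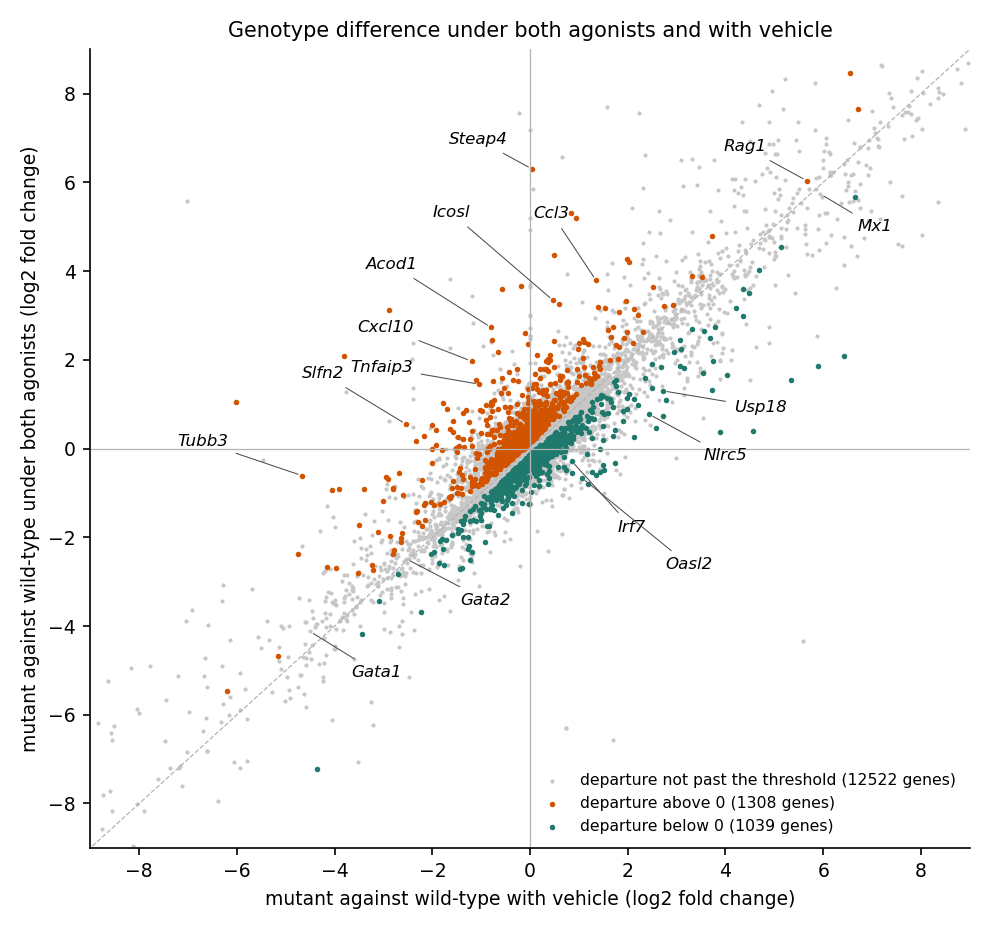
Log2 fold change of mutant against wild-type with vehicle (horizontal) and under both agonists (vertical) for the genes tested; 58 genes beyond 9 on either axis are not drawn, and the dashed line marks equal values. Orange and green points are the 1308 genes whose difference departed upward and the 1039 whose difference departed downward. Tnfaip3, Cxcl10 and Acod1 lie below 0 with vehicle and above 0 under both agonists, and Nlrc5, Irf7 and Oasl2 lie below the dashed line.

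Receptor genes for the 2 agonists differed between the lines in both directions. Ifngr1, the ligand-binding chain of the IFNg receptor, lay at 58.5, 58.3, 57.4 and 53.9 CPM in the mutant and at 69.9, 74.8, 70.3 and 71.3 CPM in the wild-type libraries. All 4 mutant values were below all wild-type values (-0.33 ± 0.04, adjusted p = 2.5e-08), whereas with vehicle the mutant had more (0.22), a departure of -0.55 ± 0.06 (adjusted p = 1.8e-08). Ifngr2, the second chain, lay at 39.1, 41.4, 45.9 and 41.8 CPM against 24.3, 24.9, 25.4 and 25.9 CPM (0.74 ± 0.05, departure 0.57 ± 0.07). Of the kinases behind the receptor, Jak2 was lower in the mutant (34.4 ± 2.38 against 57.2 ± 0.333 CPM, -0.73 ± 0.04), and Jak1 stood at 118 and 122 CPM with no call (-0.05 ± 0.03, adjusted p = 0.17; it passed as lower at -0.24 on library totals alone, at -0.12 with mutant libraries 3 and 4 only and at -0.09 without mutant library 1). Of the 12 genes of the IFNg receptor and JAK-STAT list, 7 were higher and 3 lower (median 0.13, or -0.06 on library totals alone, against 0.01 over all genes).

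The 3 Toll-like receptor genes of this pathway were higher in the mutant. Tlr2 lay at 15.5, 13.1, 15 and 14.4 CPM in the mutant and at 3.39, 2.93, 3.59 and 2.19 CPM in the wild-type libraries (2.25 ± 0.11, adjusted p = 1.2e-19). Its partner Tlr1 was at 2.33 to 3.09 against 0.0516 to 0.155 CPM (4.90 ± 0.27) and Tlr6, the other partner, at 4.29 to 4.57 against 1.48 to 2.12 CPM (1.28 ± 0.11). None of these groups overlapped. With vehicle Tlr1 and Tlr2 differed by 4.87 and 1.96, and their departures of 0.03 ± 0.54 and 0.29 ± 0.16 did not pass (adjusted p = 0.99 and 0.22). Tlr6 differed by 1.80 with vehicle, and its gap was smaller under both agonists (departure -0.52 ± 0.16, adjusted p = 0.023; it was not called without wild-type library 2, at -0.44, with no filter on low counts, at -0.54, or with the libraries of the contrast alone, at -0.53). Cd14, a co-receptor, was lower (-0.66 ± 0.11), Myd88, the adaptor, stood at 50.3 against 49.5 CPM (0.02 ± 0.04, adjusted p = 0.63; on library totals alone it passed as lower, at -0.16), and 6 of the 19 tested members of the list were higher and 6 lower (median 0.00), against 30.5% and 29.7% of all genes. On library totals alone 4 were higher and 13 lower. The kinase adaptor Irak2 was among the higher ones, 11.4 against 5.74 CPM (0.99 ± 0.09), although it had been lower with vehicle (-0.80; departure 1.79 ± 0.13).

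Genes of NF-kB and its inhibitors were mostly higher in the mutant under both agonists. Of the 5 subunit genes, Relb (1.48 ± 0.09), Rel (0.84 ± 0.08), Nfkb2 (0.66 ± 0.06) and Nfkb1 (0.20 ± 0.03) were higher and Rela was lower (-0.45 ± 0.07); Nfkb1 lost its call on library totals alone. The NF-kB feedback list held 14 genes, mostly for inhibitors of NF-kB, but also Nfkbiz, Bcl3, Birc3 and Traf1, which are not simply inhibitors. Of the 14, 13 were higher and 1, Cyld, lower (median 1.03, 0.01 over all genes), against 30.5% and 29.7% of all genes. With vehicle 6 of them were higher and 4 lower (median 0.11), and 12 departed upward and none downward.

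Nfkbia, which encodes the inhibitor IkB-alpha, stood at 49.5, 49.4, 54.8 and 50 CPM in the mutant and at 24.1, 22.4, 26.8 and 24.4 CPM in the wild-type libraries (1.06 ± 0.06, adjusted p = 1.3e-17). With vehicle the lines had 8.91 ± 0.735 and 8.48 ± 0.319 CPM, a difference of 0.08 that did not pass (adjusted p = 0.36), and the departure was 0.98 ± 0.09 (adjusted p = 3.3e-10). Tnfaip3, encoding the ubiquitin-editing enzyme A20, stood at 37.3, 41.0, 39.8 and 35.3 CPM against 13.8, 13.3, 14.8 and 14.3 CPM (1.45 ± 0.06). It turned its direction: with vehicle the mutant had 1.02 ± 0.147 and the wild-type 2.09 ± 0.167 CPM (-1.04), and the departure was 2.48 ± 0.12 (adjusted p = 4.0e-17). Nfkbiz, an atypical IkB protein gene, lay at 52.8 ± 3.42 against 15.3 ± 0.507 CPM (1.79 ± 0.06, departure 1.49 ± 0.10). Tnip3, an A20-binding protein gene, lay at 35.8 ± 3.55 against 5.58 ± 0.311 CPM (2.68 ± 0.08). Nfkbie (1.35 ± 0.09, departure 1.22 ± 0.15), Tnip1 (0.83 ± 0.05, departure 1.28 ± 0.08), the RNase gene Zc3h12a (1.25 ± 0.08) and Birc3, a ubiquitin ligase of the TNF receptor (1.00 ± 0.04), were higher as well.

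The sequence before the start of Nfkbia and Tnfaip3 is shown because NF-kB binds a known motif. The 250 bases before each annotated start, from RefSeq on GRCm38.p6, the assembly of mm10, were searched on both strands for the kB letters GGG followed, after 2 bases of any kind, by TTTCC or TTCCC. Either form was present in 2.82% of all 32851 promoter windows and in 6 of the 13 genes of this list with a window. These were Nfkbia, Tnfaip3, Nfkbid, Tnip1, Tnip3 and Cyld, the gene of the list that was lower. A gene counted if any of its windows matched, so the gene count and the share of windows differ in unit. Whether the letters bear on the differences between the lines was not tested. Nfkbia is shown from chr12:55492648-55492897 and Tnfaip3, for which the table holds 2 windows, from chr10:19015411-19015660, both on the minus strand and printed 5′ to 3′ along the gene, with the match in capitals.
Nfkbia: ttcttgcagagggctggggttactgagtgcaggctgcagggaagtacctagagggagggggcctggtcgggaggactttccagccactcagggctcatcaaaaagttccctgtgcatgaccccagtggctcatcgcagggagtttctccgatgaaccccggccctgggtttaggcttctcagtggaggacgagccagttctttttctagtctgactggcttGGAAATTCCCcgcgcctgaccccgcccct
Tnfaip3: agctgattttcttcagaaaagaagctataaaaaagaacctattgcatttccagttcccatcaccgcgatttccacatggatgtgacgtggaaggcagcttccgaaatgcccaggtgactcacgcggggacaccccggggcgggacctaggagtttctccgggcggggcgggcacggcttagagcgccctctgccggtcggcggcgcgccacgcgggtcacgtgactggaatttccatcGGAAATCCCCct
The matches began 29 and 12 bases before the start; a match describes letters and not binding.

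Chemokine genes had the highest list median under both agonists of the 32 lists. Of 20 listed, 12 passed the filter, of which 10 were higher and 1, Ccl17, lower (median 2.82), against 30.5% and 29.7% of all genes. The filter could be passed through 1 group alone, and a gene near 0 in the wild-type libraries could hardly come out lower. Such members were Ccl12 (0.318 against 0 CPM), Ccl5 (0.835 against 0.0263 CPM) and Ccl2 (1.31 against 0.061 CPM). The count of higher genes and the median may be partly set by the filter. With vehicle 3 of the 12 had no counts in either line and 4 were higher and 2 lower. Over the 9 with vehicle counts the median was 0.81 with vehicle and 2.26 under both agonists, and 4 genes departed upward. Cxcl10, a ligand of the receptor CXCR3 on T cells, reached 876, 865, 765 and 882 CPM in the mutant and 215, 209.9, 218 and 221 CPM in the wild-type libraries. The groups lay far apart (1.97 ± 0.06, adjusted p = 1.2e-22), from a level with vehicle of 0.181 ± 0.0899 and 0.410 ± 0.0897 CPM where the mutant was the lower line (-1.20; departure 3.17 ± 0.27).

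Ccl3, which draws in macrophages, lay at 215, 229, 213 and 228 CPM against 15, 15.8, 16.3 and 17.0 CPM (3.79 ± 0.06). The mutant already had more with vehicle (11.2 ± 0.612 against 4.4 ± 0.276 CPM), and the gap widened by 2.44 ± 0.08. Ccl4, its close relative, lay at 3.32 ± 0.388 against 0.364 ± 0.0347 CPM (3.17 ± 0.20, departure 1.63 ± 0.37). Cxcl9, Cxcl2, Ccl5 and Ccl2 were higher too, Cxcl9 at 14.6 to 19.7 against 2.73 to 3.28 CPM, Cxcl2 at 4.33 to 4.88 against 0.120 to 0.291 CPM. Ccl9, abundant in myeloid progenitors, was at 949, 977, 1093 and 1081 CPM against 465, 515, 503 and 479.9 CPM (1.06 ± 0.06).

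The promoter of Cxcl10 held both a kB match and the interferon-response letters, GAAA repeated after 2 bases of any kind, which were in 2.98% of all windows. It is printed from chr5:92348890-92349139 (minus strand, RefSeq, GRCm38.p6), with the interferon-response match first and the kB match second in capitals, 213 and 103 bases before the start.
Cxcl10: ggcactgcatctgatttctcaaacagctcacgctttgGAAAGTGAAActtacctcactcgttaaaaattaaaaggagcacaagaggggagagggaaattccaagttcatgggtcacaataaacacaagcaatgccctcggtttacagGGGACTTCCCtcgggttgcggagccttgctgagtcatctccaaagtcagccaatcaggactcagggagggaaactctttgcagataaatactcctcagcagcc

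Of 24 listed cytokine and growth factor genes 15 were tested, with 10 higher, 2 lower and 7 departing upward (median 1.02). Over all genes the shares were 30.5%, 29.7% and 8.8%. Tnf stood at 89.5, 93.3, 97.1 and 88.5 CPM in the mutant and at 32.6, 34.7, 33.9 and 33.5 CPM in the wild-type libraries (1.45 ± 0.04), from 8.96 ± 0.442 and 8.5 ± 0.561 CPM with vehicle (departure 1.38 ± 0.07, adjusted p = 4.0e-17). Il6 stood at 44.9 to 56.7 against 9.23 to 10.2 CPM (2.35 ± 0.10, departure 1.17 ± 0.15). The interleukin 1 beta gene and that of its receptor antagonist were both higher: Il1b was at 2.21 ± 0.146 against 0.400 ± 0.137 CPM (2.44 ± 0.19, departure 3.22 ± 0.43) and Il1rn at 3.64 ± 0.333 against 0.717 ± 0.189 CPM (2.36 ± 0.17, departure 2.41 ± 0.29). Csf1, the macrophage growth factor, was lower in the mutant (10.8 ± 0.750 against 15.6 ± 0.949 CPM, -0.52 ± 0.09), less so than with vehicle (-1.45; departure 0.93 ± 0.13). Il15 stood at 5.45 against 5.92 CPM with no call (-0.12 ± 0.07, adjusted p = 0.13; on library totals alone it passed as lower, at -0.31), where vehicle had shown -1.05 (departure 0.93 ± 0.10).

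Surface and effector genes of activated myeloid cells were higher in the mutant as well. Cd40, a costimulatory receptor, lay at 38.6, 34.8, 34.1 and 40.2 CPM against 2.75, 2.12, 2.85 and 2.73 CPM (3.82 ± 0.12). With vehicle it had 0 counts in the mutant and 1 in the wild-type libraries, so that its departure could not be called (adjusted p = 0.087). Icosl, the ligand of the T cell receptor ICOS, lay at 11.7 ± 0.483 against 1.15 ± 0.0666 CPM (3.34 ± 0.13, departure 2.87 ± 0.32), and Icam1 at 172 to 184 against 77.3 to 84.5 CPM (1.13 ± 0.04). Cd274, which encodes PD-L1, stood at 17.6 ± 0.749 and 17.0 ± 0.604 CPM (0.05 ± 0.08, adjusted p = 0.56) after a lower level of the mutant with vehicle (-0.82; departure 0.87 ± 0.14). In all, 5 of the 10 tested costimulatory and adhesion genes were higher and 2 lower (median 1.05), against 30.5% and 29.7% of all genes.

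Acod1, whose product makes itaconate, went from 0.388 ± 0.0851 CPM with vehicle to 55.3 ± 5.14 CPM in the mutant and from 0.660 ± 0.106 to 8.34 ± 0.642 CPM in the wild-type. The genotype difference thus went from -0.80 to 2.73 ± 0.09 (departure 3.53 ± 0.21, adjusted p = 4.6e-15). Ptgs2, encoding cyclooxygenase 2, lay at 130.3, 129, 112 and 121 CPM against 54.9, 53.4, 50.6 and 53.5 CPM (1.21 ± 0.05, departure 1.37 ± 0.08), and the NADPH oxidase gene Nox1 at 7.65 ± 1.09 against 3.74 ± 0.435 CPM (1.03 ± 0.14, departure 2.82 ± 0.43). Nos2, the inducible nitric oxide synthase gene, was at 0.470 to 0.790 against 0.0291 to 0.0860 CPM. Of 12 tested immunometabolic and oxidant genes 8 were higher and 2 lower (median 0.52), against 30.5% and 29.7% of all genes. With vehicle 3 were higher and 6 lower, against 24.4% and 29.3%.

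Steap4, a metalloreductase gene, had one of the largest upward departures: it lay at 5.53 to 6.0 against 0 to 0.145 CPM (6.30 ± 0.30), with 0.0436 and 0.0421 CPM when given vehicle (departure 6.26 ± 0.97). Of the immediate-early genes, 13 of 23 were higher and 4 lower (median 0.42), and Fos (1.01 ± 0.16) and Jun (0.85 ± 0.13) reversed a lower level with vehicle (-0.79 and -0.78; departures 1.79 ± 0.21 and 1.63 ± 0.18). In the inflammasome and cell death list, 12 of 22 were higher and 2 lower, against 30.5% and 29.7% of all genes (9 and 7 on library totals alone). Of those higher, Bcl2a1b (1.17 against 0.0359 CPM) and Bcl2a1a (0.607 against 0.0604 CPM) were near 0 in the wild-type libraries and could hardly come out lower. Aim2, a DNA sensor gene, was at 33.5 to 37.5 against 2.19 to 2.68 CPM (3.86 ± 0.07), the death receptor gene Fas at 6.75 to 7.72 against 1.22 to 2.06 CPM (2.10 ± 0.19), and Nlrp3, lower with vehicle (-2.34), stood at 1.85 and 1.65 CPM with no call (0.17 ± 0.19, departure 2.5 ± 0.35).

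**Figure D3:**
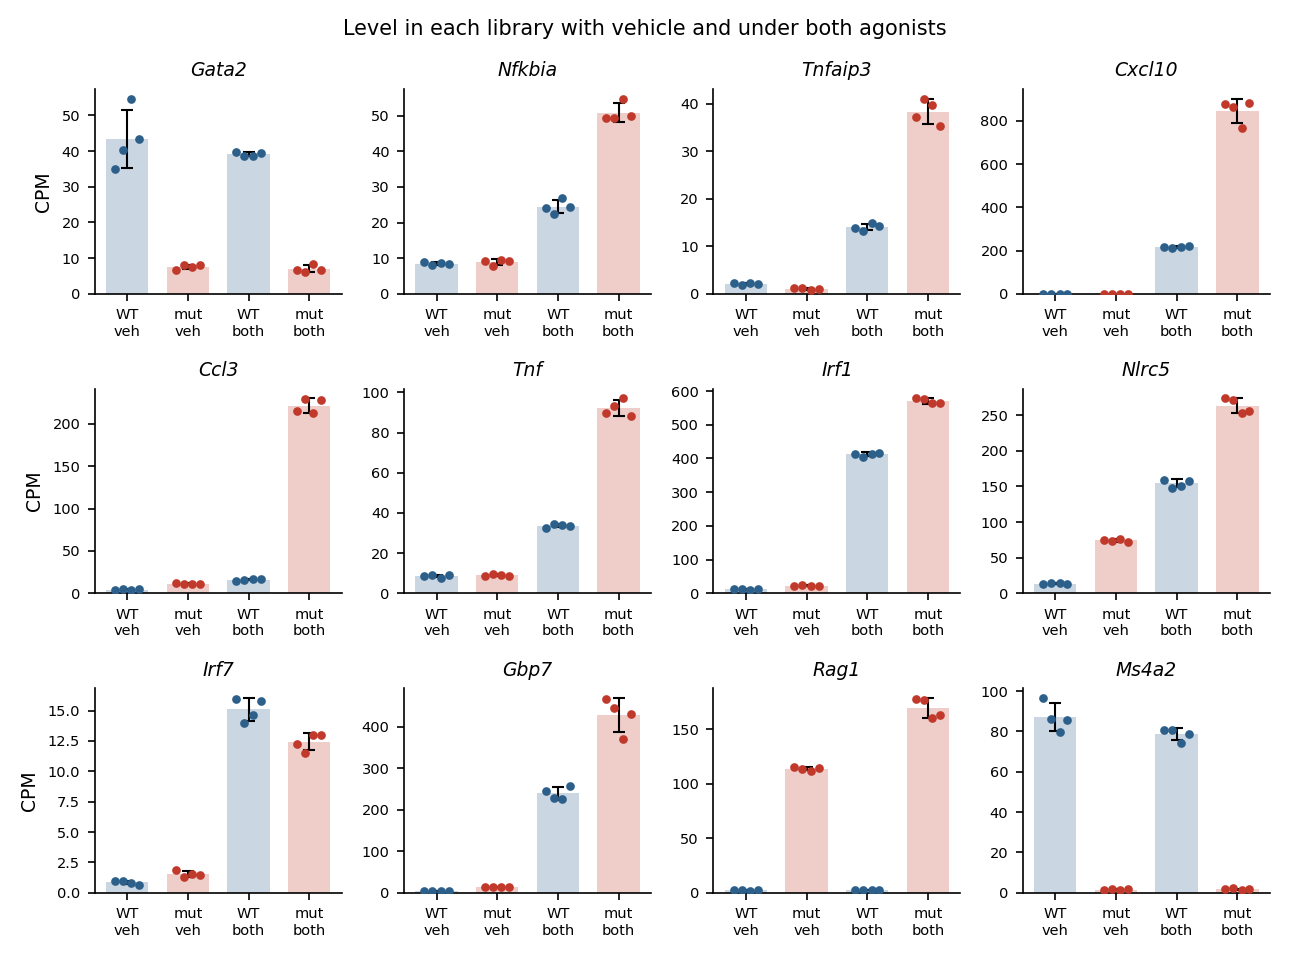
CPM of 12 genes in each of the 4 libraries (points) of wild-type (WT) and mutant (mut) cells with vehicle (veh) or both agonists, with mean (bar) and SD (line). Nfkbia, Tnfaip3, Cxcl10, Ccl3 and Tnf separate the lines more widely under both agonists than with vehicle, whereas Gata2, Rag1 and Ms4a2 separate them in either state.

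Most genes of the lists of interferon-induced genes were higher in the mutant under both agonists, and their gaps departed from those with vehicle in either direction: 6 downward and none upward among the guanylate-binding and immunity-related GTPases, 13 and 3 among antiviral genes, and 3 and 3 among class I genes. Irf1 stood at 579, 577, 563 and 564 CPM in the mutant and at 414, 404, 415 and 418 CPM in the wild-type libraries (0.47 ± 0.04, adjusted p = 9.0e-13), after 22.5 ± 1.56 and 11.3 ± 0.712 CPM with vehicle (0.99; departure -0.52 ± 0.06). Irf8, a myeloid and B lineage factor, stood at 212 ± 9.58 against 134 ± 6.22 CPM (0.66 ± 0.04, departure -0.62 ± 0.07). Irf7 changed its direction, from 0.85 with vehicle to 12.3, 11.5, 13 and 13 CPM in the mutant against 16, 13.9, 14.7 and 15.8 CPM in the wild-type (-0.28 ± 0.10, adjusted p = 0.012, departure -1.13 ± 0.17). Its call under both agonists was lost when the model held the structural RNA share (-0.24) and with mutant libraries 3 and 4 only (-0.23). Of the 8 IRF genes 5 were higher and 1 lower (median 0.43), against a median of 0.92 with vehicle.

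Inhibitors of JAK-STAT signalling were higher in the mutant in 6 of 7 cases (median 0.96). Socs1 was at 11.3 to 13.1 against 5.69 to 6.39 CPM (0.96 ± 0.14) and Socs3 at 38.8 to 46.7 against 11.3 to 12.9 CPM (1.79 ± 0.07). Usp18, which restrains the type I interferon receptor, was at 22.9 ± 1.09 against 9.29 ± 0.165 CPM (1.3 ± 0.08), a smaller gap than with vehicle (2.72; departure -1.42 ± 0.17). Socs2 was higher as well (2.75 ± 0.16), also with a smaller gap (departure -1.05 ± 0.27), whereas that of Socs3 widened (departure 0.84 ± 0.13).

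All 19 genes for guanylate-binding proteins and immunity-related GTPases, which attack vacuoles of intracellular microbes, were higher in the mutant under both agonists (median 1.64). Over all genes 30.5% were higher. Of the 19, Gbp8 (0.191 against 0.0593 CPM) and Gbp10 (0.687 against 0.0859 CPM) were near 0 in the wild-type libraries and could hardly come out lower. In this list 6 genes departed downward and none upward. With vehicle 10 were higher and none lower. Over the 17 with vehicle counts the median was 2.31 with vehicle and 1.62 under both agonists. The vehicle median was the value of Gbp11, whose difference did not pass (adjusted p = 0.26). These medians therefore do not show that the gap of the whole list shrank. The departures of Gbp2 and Gbp3 were positive and did not pass (0.47 and 0.43, adjusted p = 0.56 and 0.16). Gbp2 reached 746, 701, 617 and 735 CPM in the mutant and 219, 189, 193 and 219.5 CPM in the wild-type libraries (1.77 ± 0.09). Gbp5 reached 102 to 123 against 17.4 to 22.1 CPM (2.55 ± 0.10) and had no counts with vehicle in either line. Gbp7 lay at 371 to 466 against 226 to 258 CPM (0.84 ± 0.06), and its gap with vehicle had been larger (1.90; departure -1.06 ± 0.10). Ifi47 (1.36 ± 0.06, departure -1.13 ± 0.13), Irgm1 (0.62 ± 0.04) and Tgtp2 (1.55 ± 0.07, at 784 to 910.2 against 272 to 305 CPM) were higher too. The difference of Tgtp2 had been larger with vehicle (5.35), and its departure was among those called downward. Tgtp2 has a near-identical copy, Tgtp1, and the authors' counting could split reads between them, so its value is uncertain; the same holds for the related class I heavy chains below.

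The same interferon-response letters were in the 250 bases before the start of 9 of the 10 genes of this list that have a window, and in 8 of the 22 antiviral genes with one. A gene again counted if any of its windows matched. The windows of Gbp5 (chr3:142496684-142496933, plus strand), Tgtp2 (chr11:49064213-49064462, minus strand) and Rsad2 (chr12:26456453-26456702, minus strand) are shown from RefSeq on GRCm38.p6, as examples of genes higher in the mutant under both agonists, with matches in capitals. With vehicle the differences of Tgtp2 and Rsad2 were 5.35 and 5.30, against 1.55 and 5.41 under both agonists. In Gbp5 the interferon-response match, 165 bases before the start, precedes a kB match at 77.
Gbp5: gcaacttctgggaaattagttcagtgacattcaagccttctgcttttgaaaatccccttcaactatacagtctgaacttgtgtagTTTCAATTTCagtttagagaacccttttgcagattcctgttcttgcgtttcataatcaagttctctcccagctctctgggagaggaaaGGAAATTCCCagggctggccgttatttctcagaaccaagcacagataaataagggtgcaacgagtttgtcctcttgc
Tgtp2: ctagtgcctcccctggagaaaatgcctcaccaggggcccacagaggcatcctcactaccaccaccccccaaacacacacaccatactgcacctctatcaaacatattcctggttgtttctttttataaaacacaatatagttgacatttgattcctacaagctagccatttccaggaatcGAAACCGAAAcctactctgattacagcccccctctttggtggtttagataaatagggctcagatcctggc
Rsad2: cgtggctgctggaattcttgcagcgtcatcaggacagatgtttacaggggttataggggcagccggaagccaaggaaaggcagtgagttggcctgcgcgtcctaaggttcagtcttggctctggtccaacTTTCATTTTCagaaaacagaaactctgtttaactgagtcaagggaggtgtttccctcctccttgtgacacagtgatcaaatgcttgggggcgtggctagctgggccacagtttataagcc
In Tgtp2 and Rsad2 the capitals mark the interferon-response letters or their reverse complement alone, 70 and 120 bases before the start.

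Antiviral genes split. Of 30 tested, 19 were higher and 3 lower in the mutant (median 0.41), against 30.5% and 29.7% of all genes. On library totals alone 14 were higher and 8 lower. From vehicle 13 departed downward and 3 upward, against 6.99% and 8.8% of all genes, and the median with vehicle was 0.91. Mx1, a dynamin-like GTPase against influenza viruses, lay at 20.2, 21.3, 17.7 and 18.8 CPM against 0.464, 0.274, 0.262 and 0.485 CPM (5.74 ± 0.13). Rsad2, encoding viperin, lay at 25.4 to 29.1 against 0.552 to 0.857 CPM (5.41 ± 0.17), and with vehicle the differences were 5.94 and 5.30. Trim30a was 3.50 ± 0.06 higher (4.47 with vehicle; departure -0.97 ± 0.12), and Mx2 (4.02 ± 0.10) and Cmpk2 (2.69 ± 0.08) were higher. Oasl2, an oligoadenylate synthetase-like gene, was lower in the mutant, 8.77, 7.31, 6.29 and 7.45 against 11.9, 10.5, 12.1 and 12.6 CPM (-0.66 ± 0.14, adjusted p = 0.00013), after a higher level with vehicle (1.06; departure -1.72 ± 0.38). Its call was lost when the model held the structural RNA share (-0.42). Parp12 stood at 10.6 and 9.35 CPM with no call (0.19 ± 0.09, adjusted p = 0.087), though it passed at 0.34 when the model held the structural RNA share, at 0.18 with the libraries of the contrast alone and at 0.20 in DESeq2. Its difference with vehicle had been larger (1.49; departure -1.3 ± 0.21).

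Genes of MHC class I presentation were higher in 17 of 19 cases and lower in 1 (median 0.62, against 0.70 with vehicle). Over all genes 30.5% were higher and 29.7% lower. Of those higher, H2-Q7 (0.864 against 0 CPM) and H2-Q6 (0.368 against 0.00428 CPM) were near 0 in the wild-type libraries and could hardly come out lower. H2-K1, a heavy chain, stood at 457, 437, 477 and 481 CPM against 221, 209.9, 218 and 215 CPM (1.10 ± 0.03), H2-D1 at 427 to 474 against 159 to 169.6 CPM (1.45 ± 0.03) and B2m, the light chain, at 799 ± 17.1 against 380.0 ± 9.63 CPM (1.07 ± 0.04). Nlrc5, the transcriptional activator of these genes, lay at 274, 271, 253 and 256 CPM against 159.7, 148, 151 and 158 CPM (0.77 ± 0.05). Its log2 gap had been far wider with vehicle, 2.44, from 74.3 ± 2.10 against 13.7 ± 0.731 CPM (departure -1.67 ± 0.07, adjusted p = 3.5e-19). Tap1, the peptide transporter, was 0.53 ± 0.04 higher (departure -0.54 ± 0.06). The gaps of H2-K1 and H2-D1 were wider than with vehicle (departures 0.27 ± 0.04 and 0.20 ± 0.05), but neither departure passed on library totals alone (0.06 and -0.01), and that of H2-D1 did not pass with mutant libraries 1 and 2 only (0.09) or with the structural RNA share in the model (0.13). In the whole class I list 3 genes departed upward and 3 downward. Of class II genes 8 of 9 tested were higher and 1 lower, at low levels; Cd74, the invariant chain, was at 3.17 to 4.14 against 0.189 to 0.582 CPM.

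**Figure D4:**
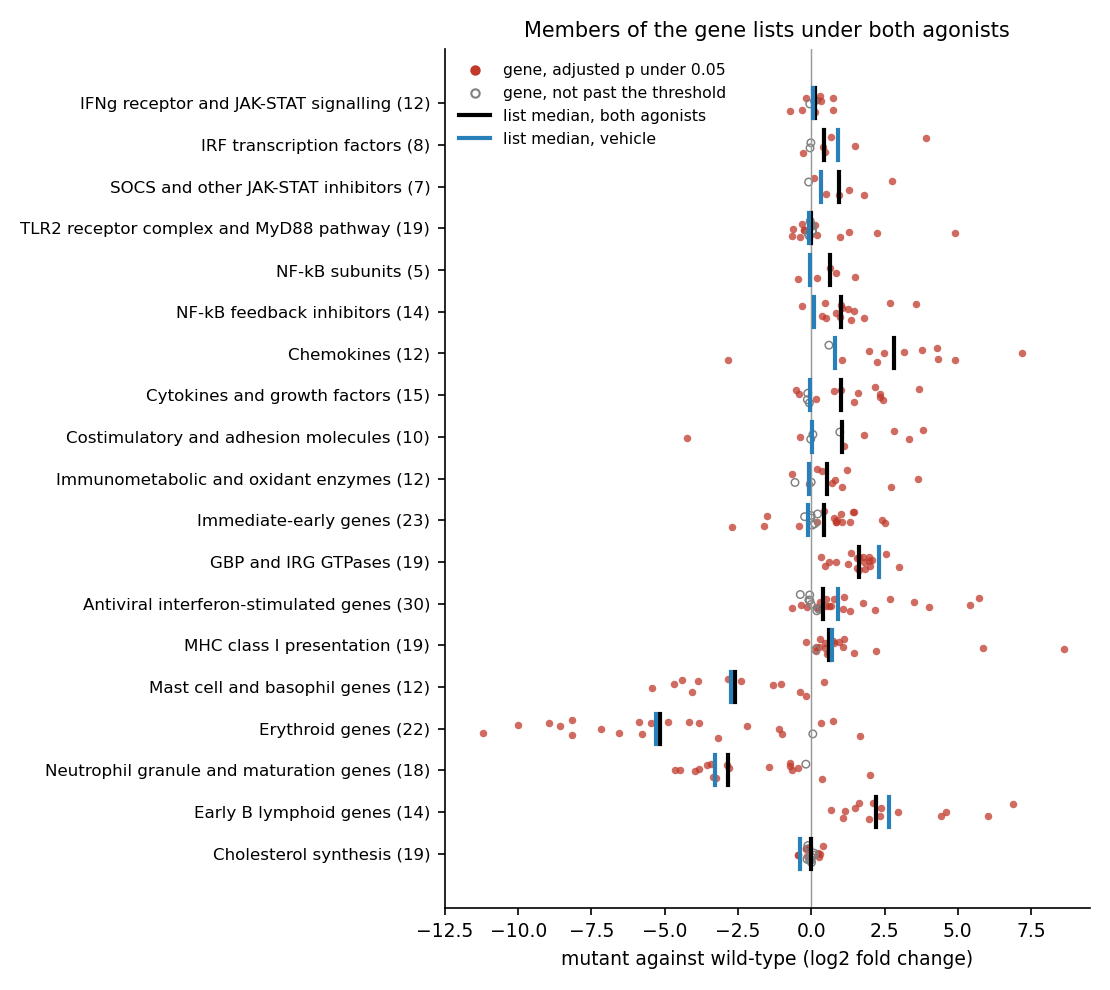
Log2 fold change of mutant against wild-type under both agonists for each tested member of 19 gene lists (number of members in brackets); filled points passed an adjusted p of 0.05. The black bar is the list median under both agonists. The blue bar is that with vehicle, over members with vehicle counts. It lies to the left of the black bar for the NF-kB feedback inhibitor list (0.11 against 1.03) and chemokines (0.81 against 2.82). For antiviral genes it lies to the right (0.91 against 0.41). The 2.82 covers all 12 chemokines, and over the 9 with vehicle counts the median under both agonists was 2.26.

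The libraries given 1 agonist were set beside those given both. The genotype difference under both agonists departed from that with IFNg alone for 600 genes upward (4.04%) and 512 downward (3.44%), 7.48% in all, and from that with Pam3CSK4 alone for 202 upward (1.36%) and 72 downward (0.484%), 1.84% in all. These contrasts share the libraries of the combined treatment. The split for IFNg turned to 468 up and 653 down without mutant library 1, to 413 and 521 with mutant libraries 1 and 2 only, and to 608 and 839 with libraries 3 and 4 only. Without mutant library 1 the counts for Pam3CSK4 were 91 and 82, and without wild-type library 2 they were 120 and 58. For Tnfaip3 the difference was -0.77 with IFNg, 1.17 with Pam3CSK4 and 1.45 under both (departure from IFNg 2.22, adjusted p = 1.4e-14; departure from Pam3CSK4 0.28, adjusted p = 0.11). Acod1 had -0.04, 2.40 and 2.73, and Nfkbia had 0.15, 1.00 and 1.06. Of the 14 genes of the NF-kB feedback list 10 departed upward from IFNg alone and 2 from Pam3CSK4 alone.

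Among interferon-induced genes the antiviral median was 0.62 with IFNg, 0.87 with Pam3CSK4 and 0.41 under both, and the class I median was 0.90, 0.77 and 0.62. Of the 19 GTPase genes 10 departed downward from IFNg alone and 4 from Pam3CSK4 alone. Nlrc5 differed by 0.94 with IFNg, 2.35 with Pam3CSK4 and 0.77 under both (departure from IFNg -0.17, adjusted p = 0.12; departure from Pam3CSK4 -1.58, adjusted p = 5.5e-18). Irf7 had 0.14, 1.24 and -0.28, and Irf8 had 0.66, 1.39 and 0.66. Serpina3f, a serine protease inhibitor gene, had 21.1 and 6.88 CPM with IFNg, 0.512 and 0 CPM with Pam3CSK4, and 108 ± 7.57 and 18.7 ± 1.68 CPM under both agonists (2.54 ± 0.06). Cxcl10 differed by 2.22 with Pam3CSK4 (departure -0.24, adjusted p = 0.26), and its level under both agonists was far above that with either alone: 13.5 and 7.37 CPM with IFNg, and 16.6 and 3.56 CPM with Pam3CSK4. Ptgs2 departed upward from each of them, by 0.64 from IFNg and by 0.67 from Pam3CSK4.

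**Figure D5:**
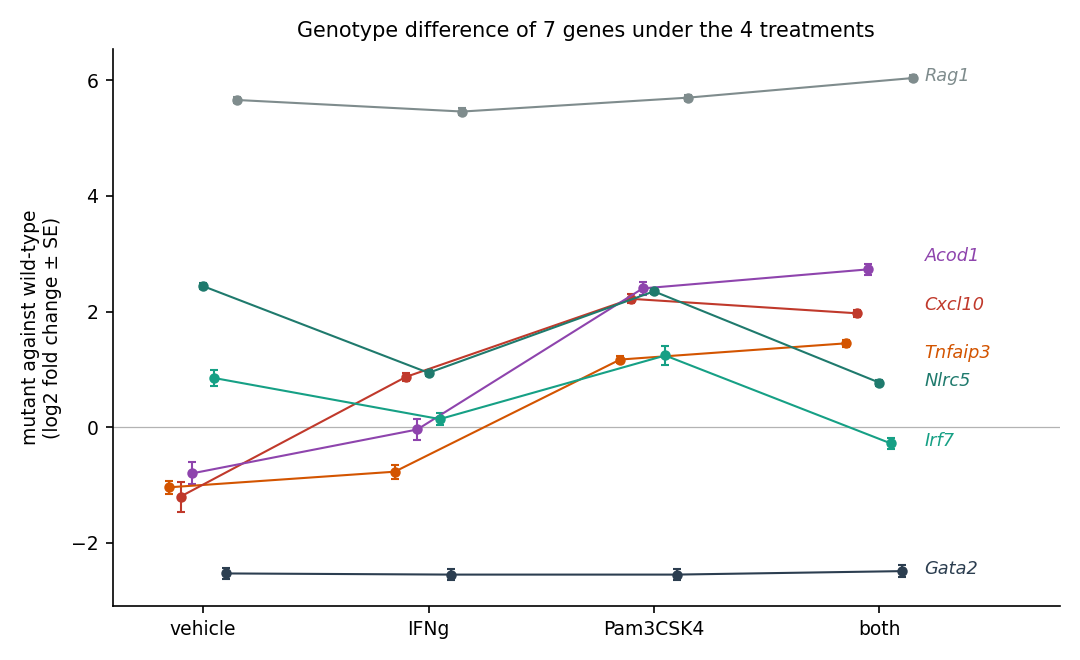
Log2 fold change (± SE) of mutant against wild-type with vehicle, IFNg, Pam3CSK4 and both agonists for 7 genes. Tnfaip3 and Acod1 are at or below 0 with vehicle and IFNg and above 0 with Pam3CSK4 and both, Nlrc5 and Irf7 are lower with IFNg and both than with vehicle and Pam3CSK4, and Gata2 stays between -2.55 and -2.49.

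Lineage genes differed widely between the lines both with vehicle and under both agonists. Over all genes 30.5% were higher and 29.7% lower under both agonists. In bulk RNA, fewer cells of a type and less RNA per cell cannot be told apart. Of 12 tested mast cell and basophil genes 11 were lower in the mutant and 1 higher (median -2.60, against -2.75 with vehicle). The summed level of the list was 349 to 375 CPM in mutant and 932 to 953 CPM in wild-type libraries. This sum includes Kit (232 against 264 CPM), which served above as a progenitor marker and makes up much of the mutant sum. Ms4a2, a chain of the IgE receptor, lay at 1.72, 2.21, 1.58 and 1.74 CPM against 80.9, 80.8, 74.4 and 78.7 CPM (-5.43 ± 0.11), and Hdc, which makes histamine, at 42.5 to 46.4 against 299 to 323 CPM (-2.83 ± 0.03). Il1rl1, an interleukin receptor gene of mast cells, was lower as well (-4.68 ± 0.09).

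Erythroid genes were lower in 18 of 22 cases and higher in 3 (median -5.16). Gata1, the erythroid and mast cell GATA factor, lay at 1.18 to 1.43 against 21.0 to 24.3 CPM (-4.12 ± 0.10), Klf1 at 0.239 to 0.475 against 10.1 to 11.2 CPM, and the globin gene Hbb-bs at 0.546 to 1.00 against 35.1 to 39.8 CPM. Neutrophil granule and maturation genes were lower in 15 of 18 cases and higher in 2 (median -2.85), with S100a9 at 1.03 to 1.85 against 18.1 to 20.6 CPM (-3.82 ± 0.21); the collagenase gene Mmp8 was one of those higher (2.01 ± 0.06). Monocyte, macrophage and dendritic genes were mixed, 9 of 15 higher and 6 lower: F13a1, a coagulation factor chain of monocytes, was higher (292 ± 11.4 against 50.6 ± 2.16 CPM, 2.53 ± 0.05), as was Csf1r (3.25 ± 0.18), and the Fc receptor gene Fcgr3 was lower (-2.20 ± 0.04).

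Early B lymphoid genes were higher in all 14 tested of 15 listed (median 2.22, with 14 of 14 and 2.65 for vehicle). Of these, Vpreb3 (0.756 against 0.00485 CPM) and Pax5 (0.492 against 0.0207 CPM) were near 0 in the wild-type libraries and could hardly come out lower. Rag1, a subunit of the recombinase of antigen receptor genes, lay at 178, 177, 160.2 and 163 CPM against 2.68, 2.79, 2.40 and 2.46 CPM (6.04 ± 0.06), Igll1, the surrogate light chain, at 25.8 to 31.3 against 1.05 to 1.35 CPM, and Il7r at 5.69 to 6.38 against 0.785 to 1.69 CPM. Gata3, a GATA factor of lymphoid cells, lay at 3.06 to 4.05 CPM against 0 to 0.0388 CPM, where the wild-type group held 3 counts in all (ratio 280.1, 95% counting interval 95.5 to 1361). Gfi1b, a repressor of the erythroid and megakaryocyte lineages, departed from its vehicle difference: with vehicle it stood at 17.5 ± 1.54 and 17.9 ± 1.72 CPM, and under both agonists at 29.7, 34.9, 34.8 and 30.3 against 13.9, 15, 14.9 and 13.9 CPM (1.17 ± 0.07, departure 1.21 ± 0.10).

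Cholesterol synthesis genes were lower in the mutant with vehicle and mostly without a call under both agonists. With vehicle 18 of the 19 tested were lower in the mutant and none higher (median -0.37), against 29.3% lower and 24.4% higher over all genes. Under both agonists 4 were higher, 5 lower and 10 without a call (median -0.02), against 30.5% higher and 29.7% lower over all genes. Upward departures numbered 13, against 8.8% of all genes. Msmo1, a sterol oxidase gene, stood at 128, 154, 156 and 147 CPM in the mutant and at 133, 163, 152 and 136 CPM in the wild-type libraries, with overlapping groups (0.00 ± 0.10, adjusted p = 0.99), after 108 ± 8.15 and 196 ± 13.6 CPM with vehicle (departure 0.87 ± 0.14). Insig1, a sterol-regulated brake, was at 0.00 ± 0.06 (departure 0.58 ± 0.09), and Hmgcs1, an early enzyme of the pathway, was higher (0.42 ± 0.08, departure 0.67 ± 0.12). On library totals alone 1 of the 19 was higher and 13 lower, with Msmo1 at -0.19 and Insig1 at -0.18.

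Further genes outside these groups had large departures. Tubb3, a beta-tubulin best known from neurons, went from 0.194 ± 0.0645 and 4.94 ± 0.553 CPM with vehicle to 148, 138, 152 and 168 CPM in the mutant and 245, 208, 236 and 235 CPM in the wild-type libraries. Its log2 gap shrank from -4.67 to -0.61 ± 0.06 (departure 4.06 ± 0.17, adjusted p = 5.8e-18). Slfn2, a Schlafen gene of lymphoid and myeloid quiescence, turned from -2.54 to 0.55 ± 0.09 (departure 3.10 ± 0.21). Mpeg1, the pore-forming perforin-2 of macrophages, narrowed from 2.77 to 1.10 ± 0.05 (departure -1.67 ± 0.07), at 60.8 to 68.7 against 29.4 to 31.6 CPM. The acute-phase genes Hp (-1.05 ± 0.06, departure 1.55 ± 0.09) and C3 (-2.68 ± 0.08, departure 1.47 ± 0.13) remained lower in the mutant with smaller gaps than with vehicle (-2.60 and -4.15).

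For the other lists the shares over all genes were again 30.5% higher and 29.7% lower. Of 17 glycolysis genes none was higher and 11 were lower under both agonists (median -0.21; -0.22 with vehicle). Of 30 cell cycle genes 7 were higher and 19 lower (median -0.17), against 5 and 13 with vehicle, and of 25 ribosome biogenesis genes 5 were higher and 11 lower (median -0.07). When the model held the structural RNA share these counts were 4 and 12 for the cell cycle and 2 and 7 for ribosome biogenesis, and on library totals alone 4 and 23 and 1 and 20. Among stem and progenitor regulators 8 of 18 tested were higher and 8 lower (median -0.06), and among GATA factors and their partners 5 of 15 were higher and 9 lower (median -0.30). Of 15 complement and acute-phase genes listed, 6 were tested, with 2 higher and 4 lower (median -1.83; -2.74 with vehicle).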

How the data were processed

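Per the file headers, each deposited table held the authors' RSEM expected counts per gene for 1 library. Per the submitters' processing notes, STAR 2.5.2b, RSEM 1.3.0 and the build mm10 were used; the annotation release is not given in the sources used here. Libraries were stranded and depleted of ribosomal RNA, per the labels' protocols. Of non-zero values 11.07% were not whole, and all were rounded. Symbols came from GENCODE vM21, which matched 55394 of 55487 identifiers.

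Genes were filtered with filterByExpr (14869 kept, 40618 removed), scaled by TMM and fitted with edgeR 4.0.16 (quasi-likelihood, robust, 1 mean per group, 32 libraries, 24 residual degrees of freedom, common biological coefficient of variation 7.22%) in R 4.3.3. The filter used the 8 groups, so a gene with counts in 1 group alone could pass and could then hardly differ in the other direction. DESeq2 1.42.0 was an alternative. P-values were adjusted over all tested genes in each contrast. Tables and figures used Python 3.11.15. Groups with 0 counts had a floor of 3 counts over the group; floors and intervals cover counting error only. On simulated counts, 90% of genes set to differ 1.5-fold between the lines under both agonists and 100% at 2-fold were called, with 7 false calls among 14669 genes. For the departure from vehicle these were 90% and 96%, with 8 false calls. The changed genes, 50 for each size of change, were taken from genes with higher counts. The other genes had the same mean in every group, and no libraries of a group stood apart. The real data differed in these points, so the rates check the method and do not hold for these contrasts or for genes with low counts.

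The comparison, the 32 gene lists and the tests were chosen with earlier results of these data known. The rule for named genes took 18 genes of the 2 pathways, the 10 largest rises and falls of at least 5 CPM without overlap, the 8 largest departures each way (without unnamed gene models and structural RNAs), and up to 3 rises and 3 falls of each list at 1 CPM or more; of these a selection is described, and further list members were chosen after their values were seen. Promoter sequences came from RefSeq (GRCm38.p6). A gene that the rule names is not reported here.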

Additional observations from a re-analysis of the deposited data

Results flagged for a closer look

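The 123 genes gave 246 sets of 4 libraries, of which those with few counts or no range were not looked at. Of the rest, 7 held a library far from the other 3. Chance gives about 1 in 20, but the number of sets looked at was not counted. In mutant libraries under both agonists the distant values were 54.8 CPM for Nfkbia, 765 CPM for Cxcl10, 41.1 CPM for Tnip3 and 1.61 CPM for Ccl2. In wild-type libraries they were 11.3 CPM for Socs3, 0.857 CPM for Rsad2 and 2.12 CPM for Cd40.

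Of the 123 genes, 74 had a departure past the threshold; the 53 whose departure the report gives, chosen with their values known, are listed here. For these the genotype difference under both agonists departed from that with vehicle in edgeR's quasi-likelihood test of the difference itself (adjusted p under 0.05). Departures are log2 values.

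Upward departures of receptor, signalling and NF-kB genes were 0.57 for Ifngr2, 0.84 for Socs3, 1.79 for Irak2, 0.41 for Nfkb1, 0.70 for Nfkb2, 0.98 for Nfkbia, 1.22 for Nfkbie, 1.49 for Nfkbiz, 2.48 for Tnfaip3 and 1.28 for Tnip1. Among chemokines and cytokines they were 3.17 for Cxcl10, 2.44 for Ccl3, 1.63 for Ccl4, 1.38 for Tnf, 1.17 for Il6, 3.22 for Il1b, 2.41 for Il1rn, 0.93 for Csf1 and 0.93 for Il15. Surface and effector genes had 2.87 for Icosl, 0.87 for Cd274, 2.5 for Nlrp3, 3.53 for Acod1, 1.37 for Ptgs2, 2.82 for Nox1, 1.55 for Hp and 1.47 for C3. The others were 0.27 for H2-K1, 0.20 for H2-D1, 1.79 for Fos, 1.63 for Jun, 1.21 for Gfi1b, 0.67 for Hmgcs1, 0.87 for Msmo1, 0.58 for Insig1, 6.26 for Steap4, 4.06 for Tubb3 and 3.10 for Slfn2.

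Downward departures among these 53 were -0.52 for Tlr6, -1.05 for Socs2, -1.3 for Parp12, -0.55 for Ifngr1, -0.52 for Irf1, -1.13 for Irf7, -0.62 for Irf8, -1.42 for Usp18, -1.67 for Nlrc5, -1.06 for Gbp7, -1.13 for Ifi47, -1.72 for Oasl2, -0.97 for Trim30a, -0.54 for Tap1 and -1.67 for Mpeg1.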

How the results depend on the processing

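Leaving out 1 library at a time gave 8448 to 8855 genes under both agonists, 7935 to 8020 with vehicle, and 1764 to 2742, 859 to 1135 and 173 to 279 departures from vehicle, IFNg and Pam3CSK4. Among the genes called with vehicle, the share higher in the mutant ran from 45.2 to 49.8%. Departures from vehicle numbered 1380 when the model held the share of structural RNA and 1466 with mutant libraries 1 and 2 only; both pairs of mutant libraries were chosen after seeing the data. Departures from IFNg numbered 632 on library totals alone (194 higher, 438 lower). Departures from Pam3CSK4 numbered 142 on library totals alone, 173 without mutant library 1, 178 without wild-type library 2 and 179 with mutant libraries 3 and 4 only (87 higher, 92 lower). On library totals alone departures from vehicle split into 380 higher and 3091 lower. The same-numbered libraries shared only a number (r from -0.0113 to 0.094, 3 of 4 mutant libraries closest to their own number); with a replicate block 8903, 2303, 1086 and 257 genes were called under both agonists and for the departures from vehicle, IFNg and Pam3CSK4. DESeq2 called 8963 genes under both agonists. Of 123 genes, 10 changed their call in some setting, and Myd88 (-0.16), Msmo1 (-0.19) and Insig1 (-0.18) took the other sign on library totals alone; the cause was not tested. Of the 53 departures given, chosen with their values known, 3 lost their call in some setting: Tlr6 (-0.44 to -0.54 where not called), H2-K1 (0.06 on library totals alone) and H2-D1 (-0.01 on library totals alone, the other sign).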
